A study of Mus musculus with 2 samples.

Results

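The data described here are 873 autosomal CpGs of mouse myotubes at which one DNA strand carried a far higher methylation level than the other in both libraries of the study. They were chosen from 528743 eligible CpGs, that is, CpGs on the 19 autosomes that lay outside the recognition sequences of the 2 restriction enzymes used and had at least 10 reads on each strand in each library. A member had a difference of at least 50 percentage points between the plus-strand and the minus-strand level, with the same sign in both libraries. Members made up 0.165% of eligible CpGs. The plus strand was the higher one at 416 of them (0.0787% of eligible CpGs) and the minus strand at 457 (0.0864%). These counts and the strand differences themselves follow from the choice and are given as a description, with no test.

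The study targeted the long non-coding RNA H19 with a small interfering RNA (siH19) and used a control small interfering RNA (siCon). Both libraries came from mouse C3H myoblasts that had been differentiated into myotubes, the multinucleate muscle cells formed in culture, and DNA was taken 48 hours after transfection. Methylation was read by reduced representation bisulfite sequencing (RRBS), in which DNA is cut with MspI (recognition sequence CCGG) and TaqαI (TCGA), and the ends of short fragments are sequenced after unmethylated cytosine has been converted to be read as T. There was 1 library per group, so the spread between cultures is not known for any value, and neither the loss of H19 RNA nor the identity of the cells can be checked in these DNA measurements. The siCon library had 104999613 reads summed over 5453019 cytosines and the siH19 library 106372792 over 5266846.

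A CpG reads the same on both strands, and in most cells both of its cytosines are either methylated or unmethylated. DNA replication leaves the new strand unmethylated for a short time, until UHRF1 binds the hemimethylated site and recruits the maintenance methyltransferase DNMT1. A CpG that stays methylated on one strand only is called hemimethylated. In RRBS, end repair fills in the overhang left by the enzymes, and a filled-in cytosine at the 3′ end of a strand comes from the reaction and not from the cell, which is why CpGs inside the enzyme sites were not eligible.

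The sequences around 10 of the members with the widest strand difference, and around 3 members in promoters of protein-coding genes, are printed because the 4 bases that hold the CpG recur through the results. Each is the plus strand of GRCm38, 5′ to 3′, with 20 bases on either side of the 4 capital letters, which are the CpG and the base before and after it.
Ano3 intron, plus strand higher, chr2:110799567-110799610: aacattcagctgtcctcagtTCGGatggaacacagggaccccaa
Tns1 intron, plus strand higher, chr1:73998871-73998914: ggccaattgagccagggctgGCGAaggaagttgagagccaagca
intergenic, plus strand higher, chr1:116847942-116847985: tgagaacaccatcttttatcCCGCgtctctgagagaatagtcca
Gm28050 intron, plus strand higher, chr5:106512105-106512148: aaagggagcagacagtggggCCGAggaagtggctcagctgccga
Mybpc2 intron, plus strand higher, chr7:44511450-44511493: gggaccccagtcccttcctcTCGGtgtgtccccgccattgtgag
Myof promoter, minus strand higher, chr19:38043064-38043107: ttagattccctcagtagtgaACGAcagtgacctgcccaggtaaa
intergenic, minus strand higher, chr3:150258573-150258616: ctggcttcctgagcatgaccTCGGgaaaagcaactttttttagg
intergenic, minus strand higher, chr6:145836869-145836912: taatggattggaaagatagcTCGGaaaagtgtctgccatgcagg
Lbh promoter, minus strand higher, chr17:72919281-72919324: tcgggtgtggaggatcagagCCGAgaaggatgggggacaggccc
Oma1 promoter, minus strand higher, chr4:103313715-103313758: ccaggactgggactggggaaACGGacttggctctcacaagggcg
Rfx1 promoter, plus strand higher, chr8:84066326-84066369: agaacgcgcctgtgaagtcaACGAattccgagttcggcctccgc
Ppara promoter, minus strand higher, chr15:85734620-85734663: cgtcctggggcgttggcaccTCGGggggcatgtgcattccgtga
Dedd promoter, minus strand higher, chr1:171328901-171328944: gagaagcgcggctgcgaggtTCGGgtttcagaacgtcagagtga

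In none of these do the capitals read CCGG or TCGA, since the rule left those out. In every one of them they differ from CCGG or from TCGA by a single base, and in TCGG and CCGA they differ by a single base from both.

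The members split by a measure the rule did not use. It is the number of times the 31 bases centred on the CpG occur in the converted reference genome. At 540 members this stretch was found once (single-copy) and at 333 more than once (multi-copy), with a median of 398 occurrences for the latter and more than 100 occurrences at 214. Multi-copy stretches made up 38.1% of members and 7.98% of 20000 randomly drawn other eligible CpGs. Values are given apart for the 2 kinds where they differed most.

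The single-copy members came close to full methylation on one strand and none on the other. Their median level on the higher strand was 100% in both libraries. On the lower strand it was 4.55% in siCon and 6.86% in siH19. The multi-copy members were less extreme, with median levels of 92.3% and 93.1% on the higher strand and 15.4% and 16.8% on the lower strand in siCon and siH19. The smaller of the 2 libraries' strand differences had a median of 85.8 points at single-copy and 62.2 points at multi-copy members. At 26 members, 23 of them single-copy, every read was methylated on one strand and none on the other in both libraries.

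**Figure D1:**
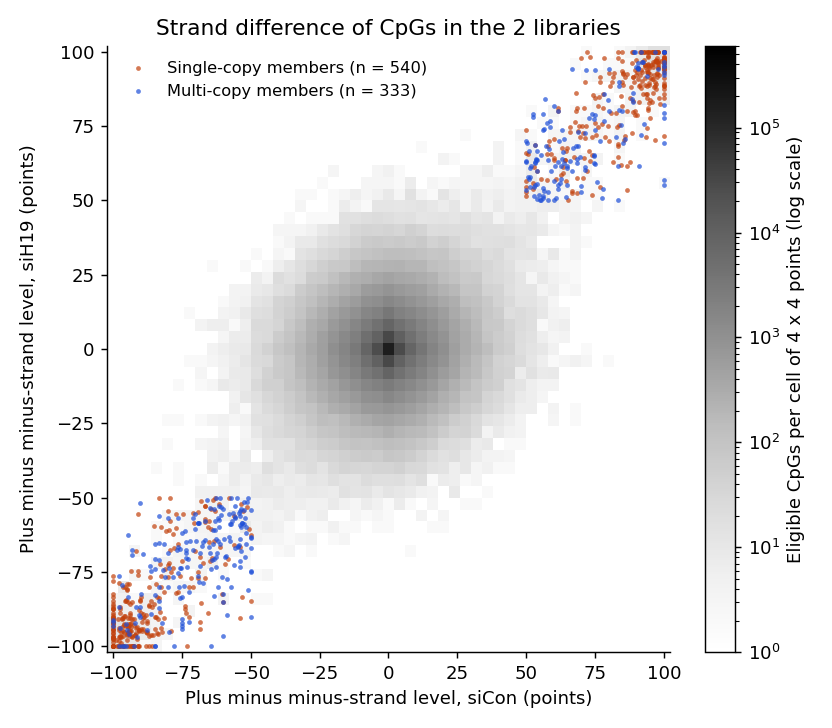
Strand difference of each CpG, the plus-strand level minus the minus-strand level in percentage points, in siCon (x axis) and siH19 (y axis). Grey cells count all 528743 eligible CpGs on a log scale, orange points are the 540 single-copy members and blue points the 333 multi-copy members. Single-copy members crowd the 2 corners near 100 and -100, and multi-copy members lie mostly between the corners and the 50-point limit.

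In the median, both strands of the members had like depth. The median depth was 24 and 23 reads on the plus and minus strands in siCon, and 26 on both in siH19, against 31 to 33 at other eligible CpGs. The higher strand had a median of 1.0 times the reads of the lower strand in both libraries.

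Since each library took part in the choice, the difference was also read where it had not been used. Of 1872 eligible CpGs with a strand difference of at least 50 points in siCon, 83.8% had the same sign in siH19 and 46.6% also reached 50 points there, with a median of 45 points in the sign of siCon. Chosen in siH19, 1391 CpGs gave 92.2% with the same sign in siCon, 62.8% at 50 points or more and a median of 62.8 points. Among the 482 CpGs chosen in siCon that lay more than 50 bp from any site, 98.8% kept their sign in siH19, 90.7% reached 50 points and the median was 88.6 points. Among the 1390 that lay within 50 bp these values were 78.6%, 31.4% and 26.9 points. Chosen in siH19, they were 99.2%, 91.2% and 89.9 points for 479 CpGs beyond 50 bp, and 88.5%, 47.8% and 46.9 points for 912 within it. The CpGs within 50 bp also started closer to the limit, with a median of 58.3 points in siCon where chosen there and 59.8 in siH19, against 89.7 and 88.9 points beyond 50 bp. Across all eligible CpGs, 1 reached 50 points in both libraries with opposite signs.

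The members nearest to the limit show how narrow it was. A CpG at chr1:127677765 was just inside, at -50 points in siCon and -62.5 in siH19. One at chr2:168481159 was just outside, at -49.9 and -54.3 points. The second pair was chr3:96126418, inside at -50 and -66.8 points, and chr1:180739603, outside at 53.9 and 49.9 points. There were 33 members at exactly 50 points in at least 1 library and 17 eligible CpGs from 49 to under 50 points.

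Members lay farther from the enzyme sites than other eligible CpGs, and this held most clearly for the single-copy ones. The median distance to the nearest CCGG or TCGA of the reference was 51 bp, against 23 bp for other eligible CpGs, and 50.1% of members but 0.73% of the others were more than 50 bp away. This limit of 50 bp was set after the distances had been seen. Of all eligible CpGs beyond 50 bp, 437 of 4294 were members, or 10.2% (Wilson 95% interval 9.31 to 11.1%, for counting error only). Of those within 50 bp, 436 of 524449 were, or 0.0831%. The single-copy members had a median distance of 84 bp, and 382 of 540 (70.7%) were beyond 50 bp. The multi-copy members had a median of 30 bp, and 55 of 333 (16.5%) were beyond 50 bp.

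**Figure D2:**
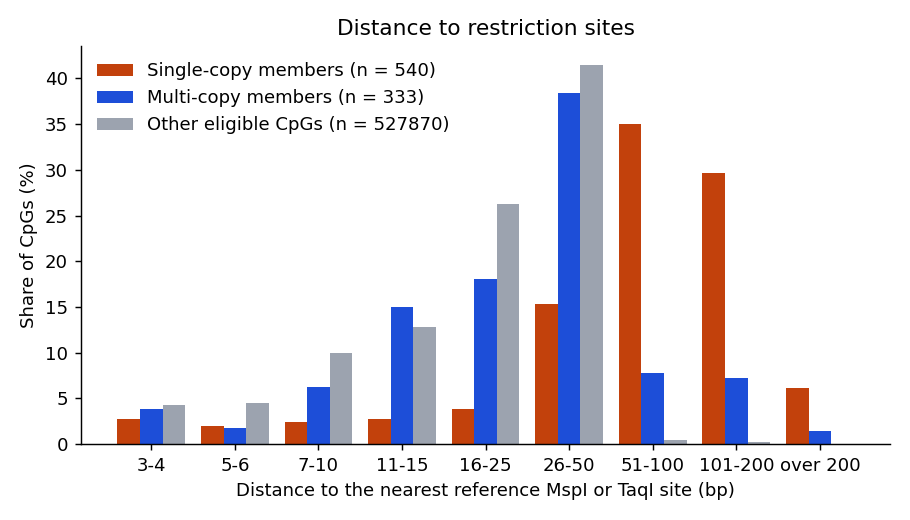
Share of CpGs (y axis, %) by distance in bp to the nearest MspI or TaqI site of the reference (x axis, bins of unequal width), for 540 single-copy members (orange), 333 multi-copy members (blue) and the other 527870 eligible CpGs (grey). Single-copy members peak at 51 to 100 bp with 189 CpGs, while multi-copy members follow the other CpGs in peaking at 26 to 50 bp.

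The 4 bases around the CpG also set the single-copy members apart. At 535 of 540 (99.1%) the context was 1 base away from CCGG or TCGA, against 71.7% of other eligible CpGs, and at the 382 that were more than 50 bp from a site it was so at all 382, against 75.4% of the other CpGs at that distance. The contexts CCGA and TCGG, which are 1 base from both sites, held 47.2% of single-copy members and 13.6% of other eligible CpGs. Multi-copy members were between these, with 79.0% 1 base away and 31.8% in CCGA or TCGG. Counted over all members, CCGA was the context of 189 and TCGG of 172, followed by CCGC with 76, GCGA with 73, GCGG with 71, TCGC with 67, ACGG with 62 and CCGT with 47.

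Distance and context together gave the highest rate. Of the 954 eligible CpGs that were more than 50 bp from a site and read CCGA or TCGG, 216 were members, or 22.6% (20.1 to 25.4%). Of the 950 at that distance that were not 1 base from a site sequence, 2 were members, or 0.211% (0.0578 to 0.764%).

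**Figure D3:**
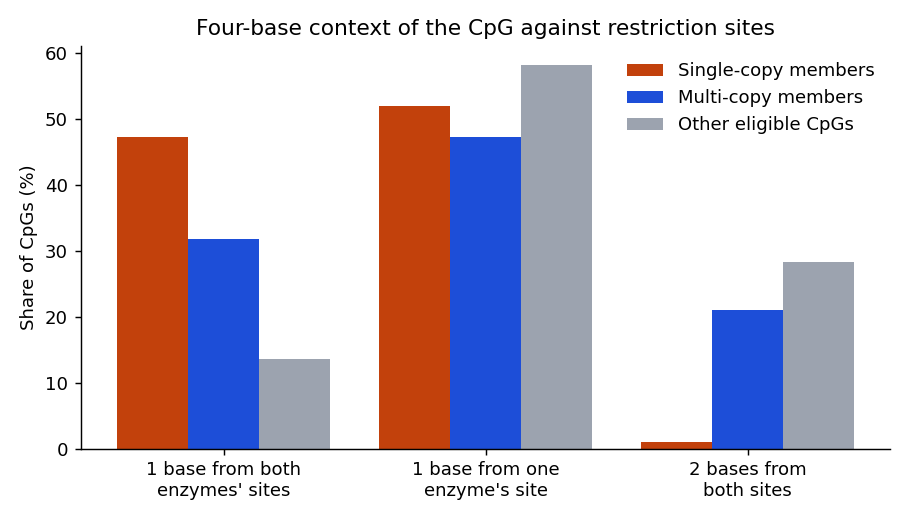
Share of CpGs (y axis, %) by the number of bases that separate the 4-base context from the 2 enzymes' recognition sequences (x axis), for 540 single-copy members (orange), 333 multi-copy members (blue) and other eligible CpGs (grey). Of the single-copy members 47.2% are 1 base from both sequences, against 13.6% of other eligible CpGs, and 5 of 540 are 2 bases from both.

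The CpGs inside CCGG or TCGA, which lie at cut ends and were not eligible, give a reference from the same libraries. Per the methods, filled-in bases were removed at the calling of methylation. Whether any remained in the deposited counts was not tested. With the same depth and difference required, 182210 of 369250 of them (49.3%) met the rule. Their median levels were 100% on the higher strand in both libraries and 5.26% and 5.88% on the lower strand in siCon and siH19. The single-copy members had 100% and 4.55% and 6.86%. Both sets were chosen on these levels, so the values are set side by side as a description only.

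Reads lay on one side of the single-copy members. Along the higher strand, its 5′ side is the left of a plus-higher and the right of a minus-higher member. At 206 of the 382 single-copy members beyond 50 bp from a site, other covered CpGs lay within 50 bp. In 182 of those 206 (88.4%) more than 90% of the neighbouring reads were on the 5′ side of the higher strand, and in 9.22% they were on the 3′ side. Among the other eligible CpGs beyond 50 bp the 2 shares were 28.5% and 23.9% (of 3048 with covered neighbours), among all other eligible CpGs 11.0% and 11.4%, and among the site CpGs that met the rule 72.3% and 7.67%. The other eligible CpGs were turned by the sign of their siCon difference, and those with no difference there were counted as minus-higher. Single-copy members within 50 bp of a site had an intermediate 49.3% (74 of 150), and multi-copy members 14.1% (42 of 298).

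The reference sites lay on that same side. A CCGG or TCGA was found 40 to 220 bp away on the 5′ side of the higher strand at 94.2% of single-copy members beyond 50 bp, and on the 3′ side at 14.1%. For the other eligible CpGs beyond 50 bp, turned in the same way as for the neighbouring reads, the shares were 70.9% and 67.7%. The nearest site ended the higher strand, that is, lay on its 3′ side, at 8.90% of single-copy and 9.38% of all members beyond 50 bp. At single-copy members within 50 bp it did so at 70.3%, and at multi-copy members within 50 bp at 45.3%. In most single-copy members beyond 50 bp, the higher strand was thus the one that ran from a reference site towards the member.

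At most single-copy members the nearest neighbouring CpG did not share the difference. The nearest other eligible CpG within 50 bp, present at 314 of 540, had a median strand difference of 0 points in both libraries in the sign of the member. It was under 20 points in size in 88.5% of them in siCon and 89.5% in siH19, and reached 50 points in that sign at 8 and 4 of them. At multi-copy members, 200 of 333 had such a neighbour, and its median difference was 35.4 points in siCon and 39.4 in siH19. At 75 and 71 of these 200 the neighbour reached 50 points, and 61 of the 200 neighbours were members themselves. With members left out of the neighbours, the medians at multi-copy members were 19.3 and 19.2 points.

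**Figure D4:**
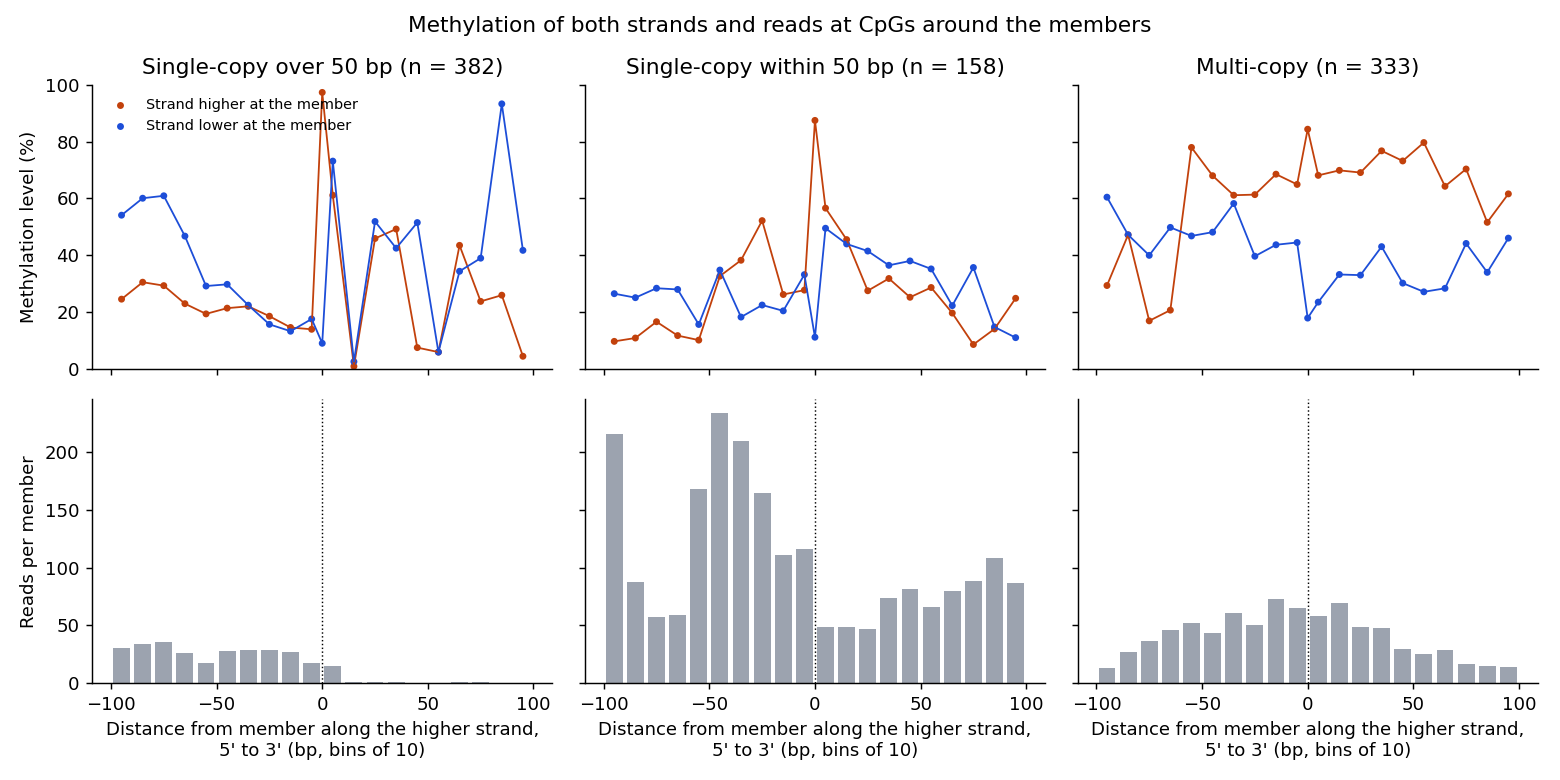
Upper panels show the methylation level (%) of the strand that is higher (orange) and lower (blue) at the member, at covered CpGs by distance along the higher strand from 5′ to 3′ (bp, bins of 10), pooled over both libraries and weighted by reads, with site CpGs included and the members at 0. Lower panels show reads per member at those CpGs. In the left panel, of 382 single-copy members beyond 50 bp, the strands lie within 4 points of each other from 35 to 5 bp on the 5′ side, and 87.6% of neighbouring reads within 50 bp lie on the 5′ side, against 73.6% in the middle panel of 158 single-copy members within 50 bp and 53.6% in the right panel of 333 multi-copy members. Farther out in the left panel, from 95 to 65 bp on the 5′ side, the strands part in the opposite sense, with 29.3% (orange) and 60.9% (blue) at 75 bp. In the middle panel orange stays above blue at 35 bp (38.2% and 18.2%) and 25 bp (52.2% and 22.5%) on the 5′ side. Bins beyond the member in the left panel hold few CpGs (19 or fewer), so their levels vary widely.

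Named members show the pattern read by read. At the member in an intron of Ano3, which encodes a membrane protein of the anoctamin family, the plus strand was methylated in 19 of 19 reads in siCon and 25 of 25 in siH19, and the minus strand in 0 of 33 and 0 of 54. In an intron of Tns1, a focal adhesion protein, the plus strand had 35 of 35 and 24 of 24 methylated reads and the minus strand 0 of 23 and 0 of 30. The nearest site was 111 bp to the left and all 180 neighbouring reads were on the left too. In an intron of Mybpc2, the fast-muscle form of myosin-binding protein C, 15 of 15 and 21 of 21 plus-strand reads were methylated, against 0 of 19 and 0 of 27 on the minus strand. All 3 have the nearest site on their left.

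Named members with the higher level on the minus strand were as complete. The side of the higher strand on which the nearest site lay varied among them. This variation belongs to the examples picked and does not set minus-higher members apart. Over all members, the nearest site ended the higher strand at 133 of 416 plus-higher and 145 of 457 minus-higher members. In the promoter of Myof, a membrane protein with a role in myoblast fusion, 51 of 51 minus-strand reads were methylated in siCon and 20 of 20 in siH19, against 0 of 50 and 0 of 51 on the plus strand. The nearest site lay 179 bp to the right, as did all neighbouring reads. In the promoter of Lbh, a transcriptional cofactor, the minus strand had 15 of 15 and 12 of 12 and the plus strand 0 of 48 and 0 of 31. In the promoter of Oma1, a mitochondrial protease, the minus strand had 17 of 17 and 27 of 27, against 0 of 26 and 0 of 26. The deepest of the group was in an exon and the promoter window of Ddi2 (chr4:141723252), an aspartic protease of the proteasome pathway, with 113 of 113 and 69 of 69 methylated minus-strand reads and 0 of 35 and 0 of 19 on the plus strand. The nearest site lay to the left of these 3, at 30 bp in Lbh, 24 bp in Oma1 and 27 bp in Ddi2, while the sites on their right were 153, 36 and 174 bp away and all neighbouring reads were on the right.

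Other named members lay in promoters, with values close to these at 3 of the 4 given here. The member near the start of Rfx1, a transcription factor of the regulatory factor X family, had plus-strand counts of 65 of 65 in siCon and 103 of 105 in siH19, and minus-strand counts of 2 of 82 and 0 of 118. At Ppara, the nuclear receptor that drives fatty acid oxidation, the minus strand had 121 of 124 and 69 of 72 and the plus strand 1 of 67 and 1 of 32. At Rdh10 (chr1:16105749), a retinol dehydrogenase, the plus strand had 78 of 79 and 63 of 65 and the minus strand 0 of 56 and 0 of 42. Dedd, a death-effector-domain protein, was less complete, with 55 of 62 and 78 of 91 on the minus strand and 6 of 56 and 17 of 72 on the plus strand. Around Rfx1 and Ppara all neighbouring reads were on the 5′ side of the higher strand, while at Dedd this was 60.2% of them.

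The 5 single-copy members whose context was not 1 base from a site sequence were picked out after their values had been seen. They lay at chr10:95455981, chr12:69582822, chr15:36603725, chr17:94486612 and chr19:44882629. Their strand differences were near the limit, with the lesser of both libraries between 50 and 60 points, and their total depth ran from 62 to 177 reads over both strands and libraries. In the promoter of Vcpkmt, a lysine methyltransferase, the plus strand had 10 of 10 and 24 of 26 methylated reads and the minus strand 9 of 22 and 11 of 41. In an intron of Pabpc1, the cytoplasmic poly(A)-binding protein, the minus strand had 10 of 10 and 15 of 15 and the plus strand 4 of 10 and 4 of 27. That fragment held 3 members, and the other 2 were multi-copy and in soft-masked repeats. The members on chromosomes 10 and 17 lay in soft-masked repeats themselves.

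The multi-copy members lay in repeats. Soft-masked repeat sequence of the reference held 87.1% of them, 8.52% of single-copy members and 8.03% of other eligible CpGs. Of eligible CpGs in soft-masked sequence 336 of 42716 were members (0.787%), against 537 of 486027 outside it (0.110%). Whether reads of other copies of a repeat were placed at these members was not tested.

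Some multi-copy members came in runs. Of the 333, 87 lay on a restriction fragment that held another member. The 873 members lay on 808 fragments, of which 771 held 1 member and 37 held 2 or more. Those 37 fragments held 102 members, 87 of them multi-copy, and on 33 of the 37 all members had the same sign. The 13 fragments with 3 or more members held 54, with 1 sign on 12 of the 13. CpGs of 1 fragment share their reads and are not independent. A run in an intron of Gm19951 is printed here from site to site on the plus strand of GRCm38, with the enzyme sites and the CG of each member in capitals, because the spacing of the members can be read from it.
Gm19951 intron, chr12:99645556-99645632: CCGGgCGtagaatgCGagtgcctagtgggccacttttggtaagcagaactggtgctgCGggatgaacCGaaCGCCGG

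The longest run was in an exon of Ppp2r5a, a regulatory subunit of protein phosphatase 2A, at chr1:191396363-191396419, where 10 of the 13 eligible CpGs of an 87-bp fragment were members, 8 of them multi-copy. The median plus-strand level over the 10 was 55.2% in siCon and 62.8% in siH19, and the median minus-strand level 1.56% and 0%, with median depths of 150 and 200 reads on the plus and 64 and 69 on the minus strand. The run in Gm19951 was higher on the minus strand. There the 5 members had median minus-strand levels of 100% and 89.2% on 10 and 37 reads, and plus-strand levels of 24.6% and 18.8% on 232 and 473 reads. The higher strand of this run was the one with fewer reads.

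The deepest member near a protein-coding gene was at chr9:3000353, in the promoter window of Gm10722, where the plus strand had 36 of 624 methylated reads in siCon and 68 of 854 in siH19 and the minus strand 31 of 37 and 89 of 105. It lay in soft-masked repeat sequence with no reference site to its left, and its 31 bases occurred 110 times. In Gm45844 (chr7:7278208) the minus strand had 218 of 265 and 356 of 415 and the plus strand 16 of 52 and 13 of 50, with 5 occurrences.

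The knockdown library was compared with the control at each of the 1746 member cytosines. The rule asked for the same sign and at least 50 points in both libraries, which limits the change between them at each member, so the calls below are a description and nothing is read from them. Methylated and unmethylated read counts were set against each other between libraries by Fisher's exact test, two-sided, with Benjamini-Hochberg adjustment over the 1057486 cytosines of all eligible CpGs. In this test 0 member cytosines had an adjusted p-value under 0.05, where 0.0102% of all cytosines did (0.00596% higher and 0.00426% lower in siH19). A beta-binomial test also gave 0, and called 21 of all 1057486 cytosines. At an unadjusted p under 0.05 there were 45, or 2.58% of member cytosines, against 2.64% of all. Of these, 23 were higher in siH19, where 1.39% of all cytosines were called, and 22 were lower, where 1.25% were. With a difference of at least 33 points as well there were 10, or 0.573%, against 0.593% of all cytosines. Of the 10, 8 were higher in siH19 (0.312% of all cytosines) and 2 were lower (0.282%). Among these 10, 8 belonged to multi-copy members, which made up 38.1% of members, and 7 of the 8 lay on the lower strand. The median change on the higher strand was 0 points at both kinds of member. The test compares 2 libraries and not 2 conditions, since each condition had 1.

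The higher level was on the coding strand at 208 of the 458 members inside genes of a single strand, 45.4% (40.9 to 49.99%). The share was 48.1% at single-copy and 40.6% at multi-copy members, and 50.8% at other eligible CpGs. Promoter windows (within 1 kb of a start) held 22.0% of single-copy members, 7.51% of multi-copy members and 53.0% of other eligible CpGs. Introns held 178 of the 540 single-copy members, 41.4% of multi-copy members and 18.8% of the others, and the space between genes held 36.1%, 46.5% and 14.5% of the 3 sets. They sat in sequence with fewer CpGs, a median of 6 in 202 bp against 15, and of lower GC content, 51.5% against 63.9%. The CTCF core motif CCCTC, searched on both strands within 100 bp, occurred at 49.8% of single-copy members, 29.1% of multi-copy members and 56.0% of other eligible CpGs. By autosome, the share of eligible CpGs that were members ran from 0.0982% on chromosome 19 to 0.268% on chromosome 12.

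No member lay inside or within 1 kb of the listed genes. The 6 genes that the study followed up held 146 eligible CpGs, 15 imprinted genes held 550, and 14 genes of the methylation machinery and the methyl cycle, such as Dnmt1, Uhrf1 and Ahcy, held 588. A count of 0 allows a share of members of up to 2.05%, 0.545% and 0.510% in these lists, for counting error only, above the 0.165% of all eligible CpGs.

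The genome used here is that of C57BL/6J mice, while the cells are labelled C3H. Whether the DNA of these cells carries an MspI or TaqI site at the members that are 1 base from one was not tested, since no C3H sequence was used here.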

How the data were processed

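The authors aligned reads with Bismark in non-directional mode within the pipeline of a service provider, trimmed filled-in bases at the methylation calling step and divided reads showing C by all reads showing C or T. The submitters' processing notes name bcl2fastq 1.8.4 and mm10. Whether duplicate reads were removed is not given in the sources used here. The deposited files hold, per CpG cytosine and strand, a text field of another kind than a plain number, with raw counts of methylated and total reads and a rounded percentage. The deposited score, a rescaled methylated fraction, matched the counts in every entry and was used only for that check.

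Levels were computed from the counts, without normalization, in Python 3.11.15 with numpy 2.4.6, scipy 1.17.1 and pandas 2.3.3. Positions are the plus-strand cytosine, counted from 1, in GRCm38, and all of them fell on a CG there. Genes came from GENCODE vM21 basic. A neighbour was within 50 bp. Copies were counted for the 31 bases around the CpG after C to T conversion, on either strand. Groups came from the sample labels. The Fisher and beta-binomial tests were tried on simulated data.

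The named members are 6 with the widest difference in each direction, 1 per fragment and with ties at 100 points broken by the larger total of reads, the 8 deepest near starts or in exons of protein-coding genes, any in the gene lists, those next to the limit and the longest runs. Some of these are not reported here. The members, lists and rules were chosen with earlier results of these data known. Intervals hold for counting error alone, because PCR reads that carry no molecular identifier cannot be taken as separate molecules. Alternatives to the depth, difference, repeat, distance and context limits were tried.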

Additional observations from a re-analysis of the deposited data

How the results depend on the processing

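The number of members was 2114 with at least 5 reads per strand and 229 with at least 20, 1646 at 33 points and 521 at 70 points, 537 without soft-masked repeats, 75 without contexts 1 base from a site and 182210 at CpGs inside the sites alone. It was 855 without the deepest cytosines, 802 at 10 bp or more from a site and 893 with chromosomes X and Y. In that order of settings, the median distance to a site was 36, 76, 31 and 81 bp for the 2 depths and 2 differences, 81 bp without repeats, 66 bp at 10 bp or more and 16 bp without the contexts. The share whose higher strand ended at the nearest site was 40.1% at 33 points, 27.2% without repeats and 28.7% at 10 bp or more. The share in soft-masked repeats was 53.1%, 25.8%, 49.6% and 24.4% for the depths and differences and 86.7% without the contexts. The share in CCGA or TCGG was 36.3% with 5 reads, 34.9% at 33 points and 45.8% without repeats. The share with over 90% of neighbouring reads on the 5′ side was 35.9% and 55.1% for the depths, 28.5% and 64.9% for the differences, 67.3% without repeats and 10.7% without the contexts. The alternatives for these last 2 shares were chosen after seeing the data. The cause of these shifts was not tested beyond the make-up of each set. The coding-strand share stayed within its interval under all 8 settings. Member cytosines that differed between libraries numbered 0 at an adjusted p under 0.05 in every setting of that test. Those settings called 21 to 113 of all cytosines tested, which numbered 299254 to 1057486. At p under 0.05 with at least 33 points 10 member cytosines were called, against 6276 of all 1057486. No paired analysis was possible because each group had 1 library. Depth limits single levels: at 10 reads a strand moves in steps of 10 points.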

Other observations

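The 773 eligible CpGs whose smaller strand difference of the 2 libraries was 33 to under 50 points, with the same sign in both, resembled the multi-copy members more than the single-copy ones in their values. Soft-masked repeats held 62.1% of them, 10.3% were more than 50 bp from a site, 27.6% read CCGA or TCGG, and 13.6% had over 90% of neighbouring reads on the 5′ side of the higher strand against 10.8% on the 3′ side. The limits behind this band were chosen with the data known, and no test was made.

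On chromosome 17, 3 of 5 eligible CpGs on a 47-bp fragment in an exon of the non-coding RNA gene Gm26917 were members. Their 31 bases occurred once each in the reference, and the number of copies in these cells was not tested. The minus strand was higher, with median levels of 94.4% in siCon and 76.6% in siH19 on 18 and 68 reads, and the plus strand had 17.3% and 25.5% on 51 and 208 reads. On chromosome 6, 4 of 8 eligible CpGs of an 81-bp intergenic fragment were members with the plus strand higher, at median levels of 83.9% and 82.6% against 29.4% and 26.9%. Median depths in siCon and siH19 were 35 and 52.5 reads on the plus strand and 215.5 and 302.5 on the minus strand. Of these 4 members 1 was multi-copy.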
